A study of Mus musculus with 4 samples.

Results

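miR-297, miR-466, miR-467 and miR-669 are mouse miRNAs whose hairpins lie in tandem in an intron of Sfmbt2, a gene of the polycomb group. Their members were taken from AGO2-CLASH chimeric reads of mouse mesangial cells (MMC) by name: every mature miRNA whose name starts with 1 of these 4 numbers, with any letter and either arm, was included. This gave 79 mature miRNAs of the 1643 listed, and 710 chimeric reads of 36318 (597 distinct reads of 29067). A read was counted once in its library however many members were listed with it. MMC, contractile cells that support the capillaries of the glomerulus, were in primary culture without treatment and came from C57BL/6J wild-type (WT) mice and from homozygous miR-379KO mice, which carry a CRISPR-Cas9 deletion in miR-379. Each genotype had 2 libraries, named A and B. Where 4 values are given without names, they are those of WT A, then WT B, then miR-379KO A and last miR-379KO B. In CLASH, RNAs held together by AGO2 are joined with T4 RNA ligase, so that a miRNA and its target can be read in 1 chimeric sequence. The study used it to find targets of miR-379, and the family described here was not its subject.

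Sfmbt2 is imprinted in mice, and its repeated miRNAs are known from placenta and embryonic stem cells. A miRNA guides AGO2 mainly through its seed, the bases from position 2 to 8, which pair with the reverse complement in a target RNA. Many mature sequences of this family are unusual in that they hold runs of alternating U and G, or of alternating A and C. Such runs resemble the simple repeats that are scattered through introns and untranslated regions. Other members differ, such as miR-466l-3p with the seed AUAAAUA and miR-467a-5p with the seed AAGUGCC.

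In the GENCODE annotation of GRCm38, Sfmbt2 occupies chr2:10370510-10595253 on the plus strand. Of 81 annotated hairpin genes of the family, 71 lay inside it, between positions 10466663 and 10518279, a stretch of 51617 bp. None of them overlapped an exon of Sfmbt2 (0 of 71), so they are intronic. The other 10 hairpin genes lay elsewhere in the genome. By the name of the hairpin, 65 of the 79 mature miRNAs came from Sfmbt2 alone, 9 from other places alone and 5 from both. Reads listed with members of Sfmbt2 alone numbered 451, reads listed with outside members alone 89, and the remaining 170 were listed with members of both kinds or with members that have copies in both.

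The mature sequences below are from RefSeq (GRCm38.p6), with the seed in capitals, and show the repeat character of these members. RefSeq sequences were matched for 8 members, and each of these lies outside Sfmbt2. miR-466j is encoded at chr10:60960802-60960824, miR-466i-3p at chr13:17747552-17747573 in Cdk13, miR-466k at chr3:85467396-85467418, miR-669n at chr3:115979905-115979924 in Slc30a7 and miR-467g at chr5:34732872-34732892 in Grk4.
miR-466j: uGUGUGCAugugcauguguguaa
miR-466i-3p: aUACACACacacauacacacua
miR-466k: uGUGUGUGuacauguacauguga
miR-669n: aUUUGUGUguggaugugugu
miR-467g: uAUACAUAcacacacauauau
miR-466j, miR-466k and miR-669n are of the U and G kind, and miR-466i-3p and miR-467g of the A and C kind. miR-467g shared its seed with 7 other members, among them miR-297a-3p and miR-466d-3p, and reads of these 8 members numbered 39.

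Libraries held between 6326 and 16324 chimeric reads, and 3 reads, taken as the smallest detectable number, made a share of 1.84 to 4.74 per 10000. Reads carried no molecular identifiers, so all intervals cover counting error only. The study calls the A and B samples of the matching AGO2 precipitation independent, but whether the libraries used here came from separate cultures or animals is not given, and p-values therefore measure the spread between these libraries. Reads of miR-379, the deleted miRNA, numbered 3 in WT A and 1 in WT B, with 0 in both miR-379KO libraries. As a check of the cell type, 9 of 12 mesangial markers were listed as targets of any miRNA, with 782 reads, while Itga8, Thy1 and Gata3 had 0. Most of these reads were of Fn1 (483), Col1a1 (118) and Acta2 (86), and Pdgfrb and Des had 4 and 2. Markers of macrophages had 0 reads, and those of endothelium, tubule and podocytes had 1, 2 and 5, with 5 genes in each list.

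Of every 10000 chimeric reads, the family made up 267 in WT A, with a 95% Clopper-Pearson interval from 243 to 293. WT B had 125 (101 to 154). The libraries of miR-379KO had 142 (A, 115 to 175) and 145 (B, 117 to 177). WT A stood above the other 3 libraries, whose intervals overlapped, and both miR-379KO libraries lay between the WT libraries. The share was 196 ± 100.4 per 10000 in WT and 144 ± 2.04 in miR-379KO (SD, n = 2 each), a difference of 52.4 that was smaller than the spread in WT (exact permutation test, two-sided, p = 1). The smallest p that 2 against 2 libraries can give is 0.33. Without WT A the difference was -18.6 per 10000. In a population of cells, fewer cells with these miRNAs and less of them per cell cannot be told apart. WT A was also the library with the highest share of genome-contained miRNA segments among reads of other miRNAs, 51.4% against 34.5% to 37.9% in the rest. Family reads that were not genome-contained made up 95.6, 45.9, 42.7 and 35.5 per 10000 chimeric reads. With genome-contained reads left out of all reads, the share differed by 70.4 per 10000, WT minus miR-379KO. How far this property of WT A enters the family's share was not tested.

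**Figure D1:**
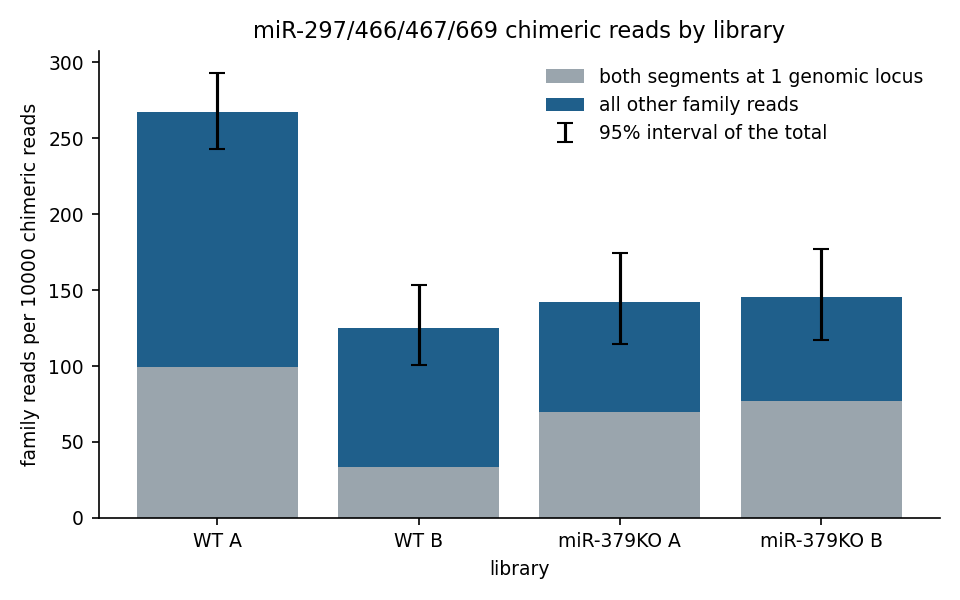
Chimeric reads of the family per 10000 chimeric reads (y axis) in each library (x axis), with the reads that have both segments at 1 genomic locus in grey, all other family reads in blue and the 95% Clopper-Pearson interval of the total as a black bar. WT A reaches 267 per 10000, and the other 3 libraries lie between 125 and 145.

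By name group, miR-466 had the most reads and miR-669 followed. miR-466 had 224, 42, 47 and 48 reads. miR-669 had 200, 39, 48 and 46. miR-467 had 35, 14, 4 and 8 reads, and miR-297 had 33, 9, 8 and 7. Set against the library totals, miR-467 was the group whose WT libraries (21.4 and 19.5 per 10000) both lay above the miR-379KO libraries (6.32 and 12.4). Such an order occurred in 20.7% of the 517 name groups tested. The log2 fold change of miR-467, WT over miR-379KO, was 1.05 (SE 0.65) and did not pass edgeR's quasi-likelihood test (adjusted p = 0.987). Those of miR-297, miR-466 and miR-669 were 0.41 (SE 0.61), 0.29 (SE 0.59) and 0.16 (SE 0.58), each with an edgeR adjusted p of 0.995. All 4 fold changes were above 0, but 2 of 4 were so without WT A, and 2 of 4 with sense alignments alone. With genome-contained reads left out (those whose miRNA segment and flanks are found together in the genome), 4 of 4 were above 0. Their median rose from 0.35 to 1.34, against 0.03 over all 277 name groups tested in that setting. There edgeR called 0 of the 4 at an adjusted p under 0.05, and 0 of the 277 (smallest edgeR adjusted p of the 4 = 0.623).

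Of the 79 mature miRNAs, 49 had at least 10 reads over the 4 libraries and were tested, 32 were seen in every library, and 13 had 1 or 2 reads. edgeR called 0 of the 49 at an adjusted p under 0.05, and 0 of all 628 miRNAs tested (0%). At an unadjusted p under 0.05 it called 0 of the 49, where 4.3% of all miRNAs passed. The smallest adjusted p in the family was 0.993. The median log2 fold change of the 49 was 0.58 (WT over miR-379KO), against 0.09 over all miRNAs tested, and 38 of them were above 0, against 53.5% of all. This direction rested on WT A: without that library the median was -0.19, with 7 of 18 tested members above 0. With sense alignments alone it was -0.59, with 3 of 9 above 0. With genome-contained reads left out it was 1.18, with 7 of 10 above 0. Many of these members were listed with the same reads, so their values are not independent. Both WT libraries lay above both miR-379KO libraries in 10 members (21.2% of all miRNAs tested did so), and below them in 1 member, miR-669c-5p (12.4% of all).

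miR-669f-5p had the most reads of the family. It was listed with 58, 9, 9 and 10 reads. Per 10000 reads WT A was the highest, and the other 3 libraries lay close together. Its log2 fold change was 0.59 (SE 0.74, edgeR adjusted p = 0.993). Of its 86 reads, 58 had both the miRNA and the target segment at a single place in the genome, and the other 28 did not. By the latter reads alone miR-466l-3p (45), miR-466i-3p (36) and miR-466c-5p (29) stood above it. Of its 61 distinct reads, 26 were listed with it alone. The aligned stretch ran at the median from base 7 to base 20 of the 24 bases of the miRNA, and covered the whole seed in 3 of 61 reads. miR-669f-5p shares its seed, GUUGUGU, with miR-669a-5p, miR-669p-5p and miR-669l-5p, and reads of these 4 numbered 71, 9, 13 and 12.

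miR-466j, miR-466m-5p and miR-669m-5p were mostly listed together. miR-466j had 26, 4, 11 and 8 reads. The mature sequences of miR-466m-5p and miR-669m-5p are identical, and both had 25, 4, 11 and 8 reads. Their seed, GUGUGCA, is that of miR-466j. Of the 41 distinct reads of miR-466j, 24 had both segments at 1 genomic place, 1 was listed with it alone, and 3 covered its seed. The fold changes of the 3 were below 0, at -0.53 (SE 0.78) for miR-466j and -0.57 (SE 0.78) for the other two, with an edgeR adjusted p of 0.993.

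miR-466i-3p had 34, 1, 2 and 9 reads. Here the libraries of 1 genotype differed from each other more than the genotypes did. It was aligned in antisense in 27 of 42 distinct reads. miR-466l-3p had 30, 6, 5 and 4 reads, and was aligned in antisense in 30 of 38. Per 10000 reads, both WT libraries were above both miR-379KO libraries for miR-466l-3p, with a log2 fold change of 0.83 (SE 0.85, edgeR adjusted p = 0.993). miR-297a-5p, with 19, 5, 4 and 6 reads, covered its seed in 17 of 29 distinct reads, and in 21 of the 29 both segments lay at 1 genomic place, against 0 of 38 for miR-466l-3p. The remaining members of the first 11 were miR-466c-5p (22, 3, 9 and 3 reads), miR-466f-3p (24, 1, 4 and 4), miR-466a-5p (18, 3, 1 and 8) and miR-669c-3p (14, 6, 5 and 5). miR-466a-5p and miR-669c-3p had 30 reads each and tied for the tenth place.

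**Figure D2:**
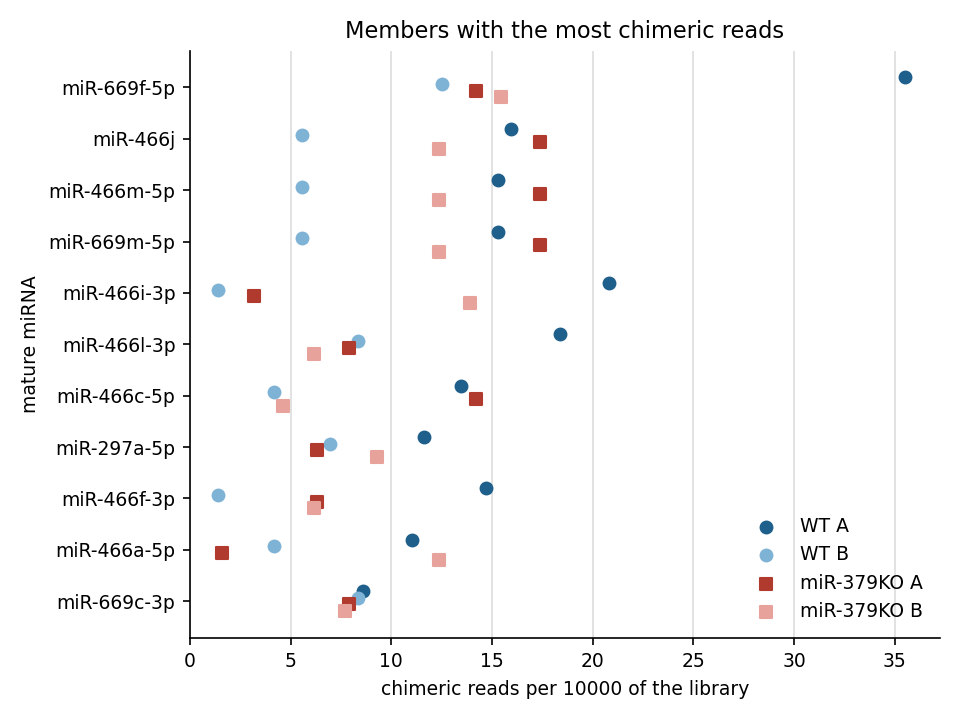
Chimeric reads per 10000 of the library (x axis) for the 11 mature miRNAs of the family with the most reads (y axis), 1 point a library, with WT as circles and miR-379KO as squares. WT A is the farthest to the right for miR-669f-5p, and for 1 of the 11, miR-669c-3p, the 4 libraries lie almost on top of each other.

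Because the members resemble each other, a read was often listed with several. Of the 597 distinct reads, 394 (66.0%) were listed with 1 member, 88 with 2, 65 with 3, and the rest with up to 9. In addition, 14 reads were also listed with a miRNA outside the family. More than 1 miRNA was listed with 33.95%, 32.3%, 35.7% and 45.5% of the family's reads. In reads of other miRNAs the share was between 1.79% and 2.41%. The difference was 34.8 ± 5.99 percentage points (SD, n = 4 libraries) and had the same direction in 4 of 4 libraries (exact paired permutation test, two-sided, p = 0.13, the smallest that 4 libraries can give). Among alignments of at least 16 nt it was 18.9 percentage points.

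The miRNA segments were short. The median alignment was 13 nt in the family and 14 nt in reads of other miRNAs, and was shorter in 3 of 4 libraries and equal in miR-379KO A (exact paired permutation p = 0.25). Alignments of at least 16 nt made up 16.7%, 12.9%, 18.6% and 13.6% of the family's reads. They made up 27.9% to 33.9% of the reads of other miRNAs, and the shares did not overlap (exact paired permutation p = 0.13). A sense alignment of 20 to 26 nt, which is close to a whole miRNA, was found in 10 distinct reads of the family (1.68%), against 5067 reads of other miRNAs (17.8%). Per 10000 chimeric reads, these were 3.06, 1.39, 6.32 and 3.09, from 5, 1, 4 and 2 reads.

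**Figure D3:**
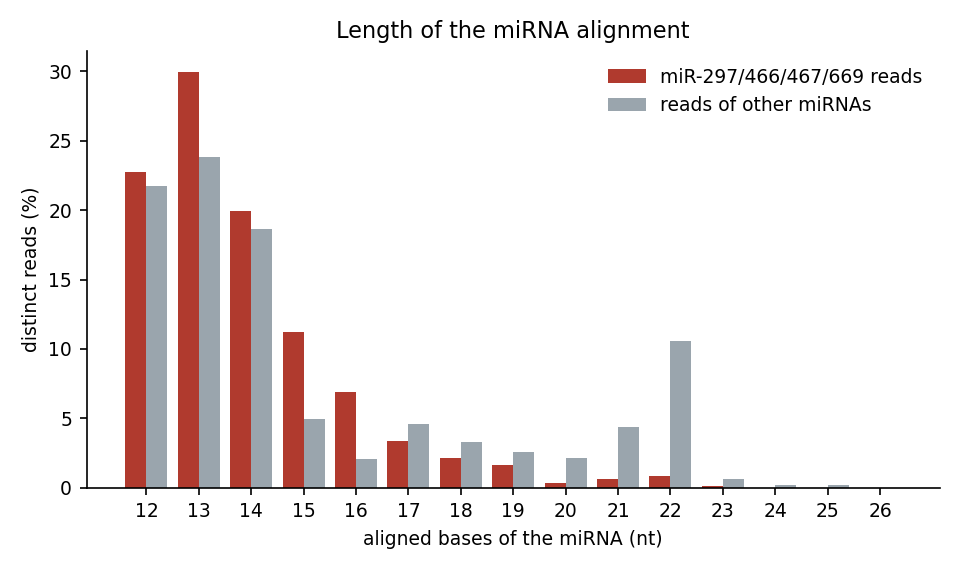
Share of distinct reads (y axis, percent) by the number of aligned bases of the miRNA (x axis, nt), for the family (red) and for reads of other miRNAs (grey), 4 libraries pooled. Sense alignments of 20 to 26 nt make up 17.8% of reads of other miRNAs and 1.68% of the family's reads.

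Of these 10 reads, 5 had the form of a whole or nearly whole miRNA joined to a target: the miRNA segment started at the first base of the read, had no mismatch, and with its flanks was not found in the genome. They are shown because the miRNA segment is whole or nearly so, though the reads with Cox15 and Pex26 were each listed with more than 1 member. Each is written as the segment in the read, with the bases of the seed in capitals, followed by up to 30 bases of the target segment.
miR-669o-5p: tAGTTGTGtgtgcatgtttatgt
Nek9 segment: agtgcatgtctggaatcatcaaccatgaag
miR-467a-5p: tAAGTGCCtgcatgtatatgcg
Dnajb6 segment: tatcgaaaacaGGCACTTaaatggcacccg
miR-669c-5p: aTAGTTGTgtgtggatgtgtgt
Lancl1 segment: tgtttggggacccagcctatctacagatgg
miR-669a-3p: aCATAACAtacacacacacgta
Cox15 segment: atatgtgtgtttgtgttaatatatgccatg
miR-466a-3p: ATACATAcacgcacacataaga
Pex26 segment: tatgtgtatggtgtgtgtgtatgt
The capitals in the Dnajb6 segment mark the reverse complement of the miR-467a-5p seed, and it was the only 1 of the 5 targets that held the seed match of its listed miRNA. Each of the 5 was sequenced once.

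The read of miR-467a-5p came from WT B, was 106 nt long and joined bases 1 to 22 of the miRNA directly to bases 513 to 596 of a Dnajb6 transcript, in its coding region. Dnajb6 encodes a co-chaperone of the DNAJ family at chr5:29735688-29818134, and the same segment was listed with the pseudogene Gm13414. The deposited minimum free energy of this pair was -24.65, the lowest of the 5. The read of miR-669o-5p came from miR-379KO B and held all 23 bases of the miRNA, with a target in the coding region of Nek9, a kinase of mitosis (chr12:85299514-85339362). The other 3 came from miR-379KO A. miR-669c-5p was joined to the coding region of Lancl1, a protein of the lanthionine synthetase-like family (chr1:67000517-67038872), and miR-669a-3p, which has the same sequence as miR-669o-3p, to the 3′ UTR of Cox15, an enzyme of heme A synthesis (chr19:43733254-43753000). The read with Pex26, a peroxisome assembly protein (chr6:121183667-121198837), was listed with miR-466a-3p, miR-466b-3p, miR-466c-3p, miR-466e-3p and miR-466p-3p. Its target segment of 24 nt is itself rich in alternating T and G.

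The remaining 5 long reads were found in the genome with their flanks. 2 joined bases 4 to 24 of miR-669f-5p to Gm37677, with 4 reads in the A libraries (3 of WT, 1 of miR-379KO), and both matched an intron of Rhot1 at chr11:80217680-80217720. miR-297c-5p with Glb1l2 matched an intron of Kat6a at chr8:22921928-22921967. miR-297a-5p with RP23-224F12.3 had 3 genomic loci, 1 of them in an intron of Mrps18a. miR-669f-5p with n-R5-8s1 matched an intron of C530008M17Rik.

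This pattern was not limited to the long alignments. A miRNA segment was called genome-contained where it matched GRCm38, including flanks of at most 10 nt from the read, without mismatch and outside annotated miRNA genes. That was the case in 384 of the 597 family reads (64.3%), against 43.5% of reads of other miRNAs. The shares were 62.1%, 61.3%, 67.1% and 73.9% in the family, and 51.4%, 34.5%, 35.4% and 37.9% in other reads. The family was above the other reads in 4 of 4 libraries, by 26.3 ± 11.04 percentage points (SD, n = 4, exact paired permutation p = 0.13), and by 40.7 among alignments of at least 16 nt. Of the 384 reads, 360 had a single locus, and 288 lay mostly in soft-masked sequence, which RefSeq marks as repeats. No family read matched an annotated miRNA gene with its flanks (0 of 597), and 0 of the 384 loci lay in Sfmbt2.

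In many of these reads the target segment lay at the same genomic place as the miRNA segment. The whole read was laid, without gaps, on the locus of its miRNA segment, and the target segment was taken as present there where at least 90% of its bases were identical. This held for 220 family reads (36.9%), against 5.21% of reads of other miRNAs. The shares were 33.2% (95% interval 28.4% to 38.2%) and 27.4% (16.9% to 40.2%) in the WT libraries, and 47.1% (35.1% to 59.4%) and 51.1% (40.2% to 61.9%) in those of miR-379KO. In reads of other miRNAs they lay between 4.03% and 5.90%. The difference was 34.8 ± 11.4 percentage points (SD, n = 4), in the same direction in 4 of 4 libraries (exact paired permutation p = 0.13). In 169 family reads (28.3%) every base of the read, from the first to the last, was identical to the genome at that locus, against 3.56% of reads of other miRNAs (1013 reads). Such reads remained in the deposited files although the authors took out merged sequences that aligned to the genome, and why they remained was not tested. Of the 384 loci of genome-contained segments, 336 were intronic, 36 exonic and 12 intergenic.

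The 220 reads, with 280 chimeric reads, fell into 164 genomic places when loci up to 1000 bp apart were joined, and 17 of these were met in more than 1 library. In 157 of the 164 places the locus was intronic. Per 10000 chimeric reads they made up 99.2, 33.4, 69.6 and 77.2. The rest of the family's reads made up 168 and 91.8 in WT, and 72.7 and 67.9 in miR-379KO, so that here both WT libraries were above both miR-379KO libraries. The means of this rest were 130 ± 53.8 in WT and 70.3 ± 3.37 in miR-379KO (SD, n = 2 each), a difference of 59.5 that was 21.4 without WT A and 97.5 without WT B. The exact permutation test cannot pass its threshold with 2 against 2 libraries.

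The target genes of the family were many and mostly met once. Family reads were listed with 480 genes of 8440, of which 360 had 1 family read, 105 had 2 to 4 and 15 had at least 5. Of the 480, 208 were listed with family reads alone. By class, 61.5% of the distinct reads had a protein-coding target, 23.3% a long noncoding RNA and 9.55% a ribosomal RNA, against 47.5%, 32.3% and 14.1% in reads of other miRNAs. Where the position on a coding transcript could be placed, 152 family reads (77.9%) lay in the 3′ UTR, 38 (19.5%) in the coding region and 5 in the 5′ UTR. In reads of other miRNAs 51.8% lay in the 3′ UTR and 43.9% in the coding region. The region is that of the listed transcript, also where the read matched the genome elsewhere. The most frequent reads of Olfr1348 and Aoc3 had the region 3′ UTR, while both their segments lay in introns of Kmt2c and Nfx1. The regions without reads that have both segments at 1 locus were not tested.

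Of the 10 genes with the most family reads, 6 had reads that lay at 1 place elsewhere in the genome. Gm4219, a processed transcript at chr19:59943722-59948398, had 25, 2, 3 and 4 reads, all of them family reads. They were 15 distinct reads, 14 of them listed with miR-669f-5p, and 11 had both segments at 1 locus, in an intron of Nptn, which encodes the adhesion protein neuroplastin. The most frequent of them was sequenced 9 times in WT A. Its 55 nt matched chromosome 9 from end to end, with the miRNA segment and its flanks at chr9:58601511-58601538.

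Olfr1348, an olfactory receptor gene (chr7:6499793-6508748), had 7, 3, 1 and 1 family reads, and Rhbdd2, a gene of the rhomboid family (chr5:135632618-135646448), had 6, 3, 1 and 1. The reads were for the most part the same, listed with both genes and with miR-669f-5p or miR-669d-5p. Of the 9 distinct reads of Rhbdd2, 8 lay in an intron of Kmt2c, a histone methyltransferase gene, at chr5:25460455-25460487. Gm11696, with 6, 0, 2 and 2 reads, was listed with miR-466j, miR-466m-5p and miR-669m-5p, and 8 of its 8 distinct reads lay in an intron of Frmd6 at chr12:70898771-70898794. Gm24855, itself annotated as a miRNA gene, had 5, 0, 2 and 1 reads, and 5 of 5 lay in an intron of Smad6, an inhibitor of BMP signalling. Aoc3, which encodes a vascular amine oxidase (chr11:101330605-101341938), had 7 reads, all in WT A, and 3 of its 3 distinct reads lay in an intron of Nfx1 at chr4:41019900-41019935.

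The segments of the most frequent of these reads are given because both parts of each were found at 1 place in the genome. Both segments are written as 1 strand of each, the miRNA segment as in the read and the target segment in the direction of the transcript, with bases of the seed or a seed match in capitals.
miR-669f-5p segment, Nptn intron: tgcaggtgcatgtgt
Gm4219 segment: aagttgtcctctggcctccacatgta
miR-669d-5p segment, Kmt2c intron: TTGTGTgtgcatg
Rhbdd2 segment: tcttctggcctccacaggtacctacat
miR-466j segment, Frmd6 intron: Atgtgcatgtgtgt
Gm11696 segment: cacacgcatgcaggtacctgtaga
miR-669c-3p segment, Smad6 intron: ttacttgtgtgtg
Gm24855 segment: TGTGTGTgcgcgcacatgtgcatgtgca
miR-466k segment, Nfx1 intron: tcacatgtacaggtac
Aoc3 segment: acatacattcacacagacacata
The segments of miR-669c-3p and miR-466k were aligned in antisense. The Gm24855 segment holds the seed match of miR-669c-3p, and the other 4 target segments hold no match to the seed of the miRNA beside them.

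**Figure D4:**
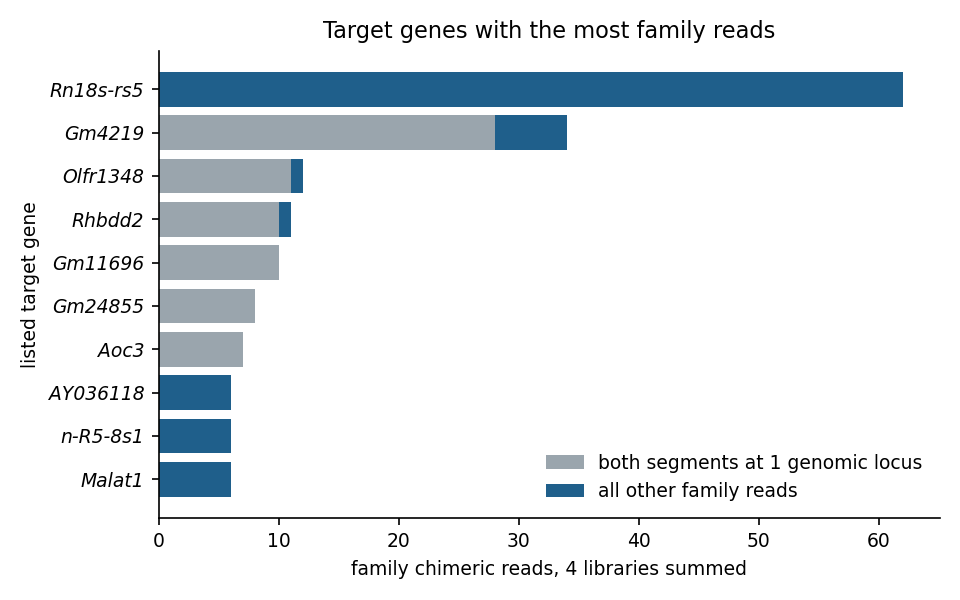
Family chimeric reads summed over the 4 libraries (x axis) for the 10 target genes with the most of them (y axis), with reads that have both segments at 1 genomic locus in grey and all others in blue. Gm4219, Olfr1348, Rhbdd2, Gm11696, Gm24855 and Aoc3 are mostly or wholly grey, and Rn18s-rs5, AY036118, n-R5-8s1 and Malat1 have 0 such reads.

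The other 4 genes were abundant noncoding RNAs, and none of their family reads had both segments at 1 locus. Rn18s-rs5, a copy of the 18S ribosomal RNA, had the most family reads of any gene, with 47, 7, 3 and 5. This was 8.73% of the family's reads, while the gene took 19.5% of the reads of other miRNAs, and in each library the family's share was below that of the others. All 56 distinct reads were antisense to the annotated transcript, as were 5594 of 5595 reads of other miRNAs at this gene. Of the 56, 35 were listed with miR-466l-3p, whose target segments lay between positions 1647 and 1749 of the transcript. They were seen in 4 libraries, with 29, 6, 2 and 3 reads. In 34 of the 35, that is all but 1, the rRNA came first in the read, and in 30 the miRNA was aligned in antisense. The most frequent of 25 different miRNA segments, in 10 of the 35 reads, is shown as it stands in the read.
miR-466l-3p segment: gtgcatttatttat
AY036118, a noncoding RNA of the rDNA, had 4, 1, 1 and 0 family reads, n-R5-8s1 (a short ribosomal RNA) had 5, 0, 1 and 0, and Malat1, a nuclear noncoding RNA, had 5, 0, 0 and 1.

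Simple repeats were frequent in both segments of the family's reads. A run of at least 8 bases of alternating T and G, or of alternating C and A, was present in the miRNA segment of 26.5% of the family's reads and 0.253% of other reads. As many of the mature sequences hold such runs, this follows in part from the choice of the family. In the target segment, which the choice of the family did not use, it was present in 92 of 597 family reads (15.4%) and in 0.404% of other reads. The shares in the target were 16.4%, 6.45%, 15.7% and 17.05%, and at most 0.485% in other reads of any library (difference 13.5 ± 5.01 percentage points, SD, n = 4, exact paired permutation p = 0.13). With runs of at least 10 bases the difference was 2.36 percentage points in the target segment and 7.83 in the miRNA segment, in place of 27.4. WT B had the lowest share, from 4 reads. Among reads without both segments at 1 locus, 66 of 377 (17.5%) had such a target.

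The target segments of the family were also shorter, with a median of 28 nt against 57 nt in reads of other miRNAs, in 4 of 4 libraries (exact paired permutation p = 0.13). The deposited minimum free energy was weaker, with a median of -17.96 against -23.86.

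A seed match, the reverse complement of bases 2 to 7 of a listed miRNA, was present in the target segment of 150 of 597 family reads (25.1%), against 30.7% of reads of other miRNAs. The family was lower in 4 of 4 libraries, with a difference of -6.27 ± 2.43 percentage points (SD, n = 4, exact paired permutation p = 0.13) and shares of 25.99%, 20.97%, 27.1% and 22.7%. Among alignments of at least 16 nt the difference was -2.96 percentage points (exact paired permutation p = 0.5). The same hexamers were found in 1.22% of the target segments of other miRNAs. Among target segments of at most 35 nt, the shares were 21.6% in the family and 29.8% in other reads. The seed match was present in 29 of 92 targets with a repeat (31.5%) and 121 of 505 without (23.96%). It was present in 42 of 220 reads with both segments at 1 locus (19.1%) and in 108 of the other 377 (28.6%).

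The orientation of the segments differed as well. The miRNA was aligned in antisense in 43.2%, 46.8%, 35.7% and 42.0% of the family's reads, and in 28.2% to 30.8% of the reads of other miRNAs. The difference was 12.4 ± 4.26 percentage points (SD, n = 4, 4 of 4 libraries, exact paired permutation p = 0.13), and 21.2 among alignments of at least 16 nt. The target was in antisense in 44.1% of family reads and 28.6% of other reads. Among the 220 reads with both segments at 1 locus, 142 had the miRNA and the target in opposite orientations, 45 had both in sense and 33 both in antisense. Among the other 377 reads, 91 had opposite orientations, 177 had both in sense and 109 both in antisense.

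**Figure D5:**
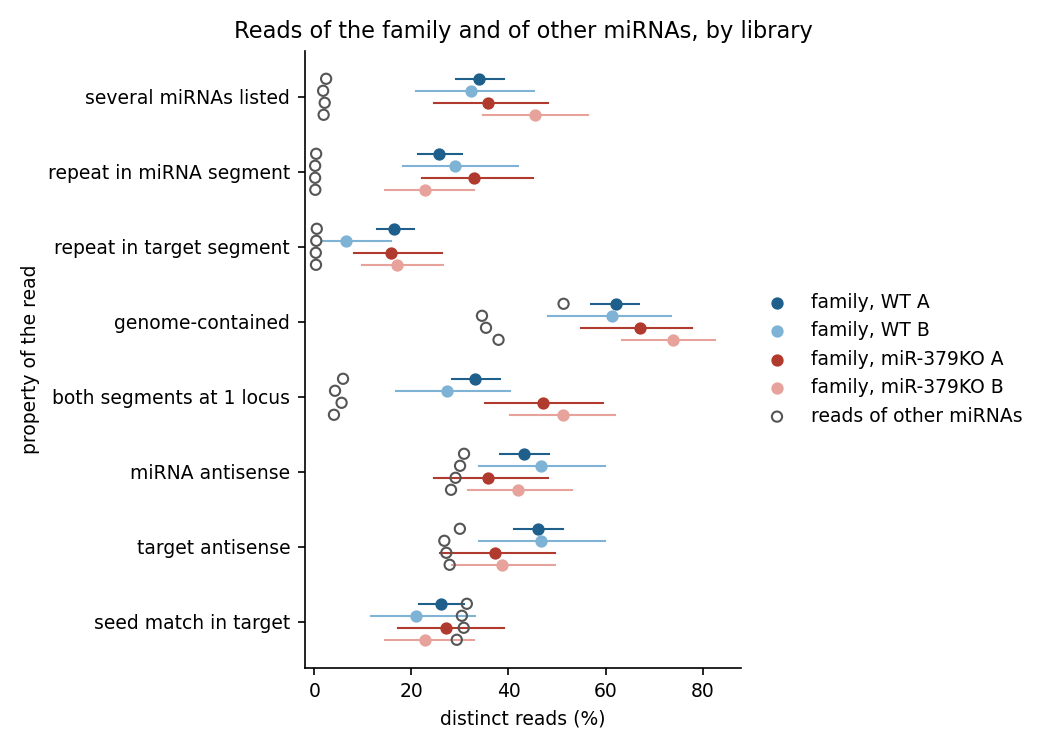
Share of distinct reads (x axis, percent) with each of 8 properties (y axis), for the family in each library (filled points with 95% Clopper-Pearson intervals) and for reads of other miRNAs in the same library (open circles). The filled points lie to the right of the open circles in all 4 libraries for 7 properties, and to the left for the seed match.

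The family made up 1.95% of all chimeric reads, against which the reads of genes described elsewhere as its targets (1.74%) and of the miRNA pathway (2.27%) can be set. Of 8 genes of the first kind, 2 had reads of any miRNA. Thbs1, which encodes thrombospondin 1 and is known as a target of miR-467, had 161 reads in all and 3 family reads, of which WT A held 2 and miR-379KO B held 1. They were listed with miR-669h-3p and miR-669i together, with miR-466c-5p and with miR-669c-3p, and 0 with miR-467. Birc6 had 11 reads in all and 0 of the family. The other 6, among them Il10 and Myod1, had 0 reads. Of 13 genes of the miRNA pathway, 11 had reads, 44 in all, and 1 of these was a family read, of Tnrc6b, an AGO partner protein. That read, of miR-669n in antisense over 12 nt, had both segments at 1 genomic place. Of 8 polycomb genes 5 had reads, 6 in all, and 0 were family reads. Sfmbt2 itself had 0 reads of any miRNA. The mesangial markers had 3 family reads of 782 (0.384%). All 3 were reads of Fn1 (fibronectin), which had 483 in all, and were listed with miR-467 members, while the other 8 detected markers, Col1a1 (118 reads), Acta2 (86) and Col4a1 (57) among them, had 0.

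For the comparison of genotypes by target gene, reads of all miRNAs were summed per gene, since family reads were too few. Of 686 genes tested, 78 were listed with the family, and edgeR called 0 of them at an adjusted p under 0.05 (0% of all genes tested). At an unadjusted p under 0.05 there were 8 of the 78, where 3.64% of all genes passed. They were mt-Rnr2, Gm10925 and mt-Atp6, higher in miR-379KO as 1.9% of all genes were, and Uggt1, Arntl2, Eif4g2, RP24-93F20.9 and Itpripl1, higher in WT as 1.75% were. Gm10925 and mt-Atp6 carried the same counts in every library. The number was 2 of 78 with a replicate block and 1 of 78 with DESeq2. It was 9 of 63 with each distinct sequence counted once and 6 of 30 with alignments of at least 16 nt. Of those 9 genes, 4 pointed to WT and 5 to miR-379KO, while the 6 all pointed to miR-379KO. The share of all genes that passed was not tested in these settings, so no background stands beside these counts. Each of the 8 had 1 family read, so that these values describe other miRNAs. Among the genes with the most family reads, the log2 fold change of all reads, WT over miR-379KO, was -0.19 (SE 0.25) for Rn18s-rs5, 0.40 (SE 0.57) for Malat1 and 0.77 (SE 0.95) for Gm4219, with edgeR adjusted p of 0.964 each.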

How the data were processed

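AGO2-CLASH chimeric reads of MMC were analysed in 2 WT and 2 miR-379KO libraries, grouped by the sample labels. The authors merged read pairs, used Bowtie2 2.1.0 to take out merged sequences that align to GRCm38.p5 or to GENCODE transcripts, and searched the rest on both strands against mature miRNAs and transcripts by blastn. The deposited count is the number of merged reads of 1 sequence, without normalization. The deposited score and minimum free energy of each pair come from the authors, by a tool not given in the sources used here. A deposited start above its end was read as antisense.

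Each read was counted once per library, and once per member or gene where those are given. A distinct read was described by its longest alignment, sense first. The members, gene lists and tests were chosen with earlier results of these data known. Named are the 10 members (11 with a tie) and 10 target genes with the most reads, members with at least 20 nt aligned in sense (over 20 in the rule as written, which adds miR-297c-5p), anything past the threshold, Sfmbt2 and the gene lists.

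Tests were edgeR 4.0.16 (R 4.3.3, quasi-likelihood, TMM, at least 10 reads, Benjamini-Hochberg over all features, threshold 0.05) and exact permutation tests over libraries. Segments were searched in GRCm38.p6 by exact match. Whether both segments lay at 1 locus was a measure added after seeing the data. Gene positions are from GENCODE on GRCm38. Intervals are 95% Clopper-Pearson (scipy 1.17.1). The genome search and edgeR were tested on simulated data. Alternatives were DESeq2 1.42.0, a replicate block, no TMM, no filter on low counts, each library left out, stricter alignments, each distinct sequence counted once, sense only, a shorter flank, longer repeats and seeds, and reads listed with the family alone.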

Additional observations from a re-analysis of the deposited data

How the results depend on the processing

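The share of the family, WT minus miR-379KO, was 52.4 per 10000 and reversed to -18.6 without WT A. Leaving out 1 library at a time, it ranged from -18.6 to 123 per 10000. With the libraries paired by letter (replicate block) it was 52.4, as a balanced design fixes it, and in edgeR the block left the count of called members, name groups and target genes at 0. The letters are not stated to pair the libraries, and deviations from the genotype means of libraries with the same letter correlated at -0.0632 over 628 miRNAs. Of 65 alternatives over 10 differences, the block left out, the other 64 kept the direction of the value reported. In all 39 alternatives of the 3 counts of called features, DESeq2 among them, 0 members, 0 name groups and 0 target genes of the family passed. The direction of the fold changes was less stable than these counts of 0: the median of the members, 0.58 on the log2 scale, was -0.19 without WT A and -0.59 with sense alignments alone, and that of the 4 name groups, 0.35, was -0.05 and -0.11. With genome-contained reads left out they were 1.18 and 1.34. Sizes moved by over 1.5 times in some cases. The difference in family share, WT minus miR-379KO, went to 18.97 per 10000 with sense alignments alone. It was 31.6 with genome-contained reads left out of the family count but kept in the library totals. The differences in repeats went to 2.36 (target) and 7.83 (miRNA) percentage points with runs of at least 10 bases. With alignments of at least 16 nt, several listed miRNAs went to 18.9, genome-contained segments to 40.7 and antisense alignments to 21.2. With genome-contained reads left out of the library totals as well, the difference in family share was 70.4 per 10000. The lower share of seed matches in the family kept its direction but gave p = 0.5 by the exact paired permutation test with alignments of at least 16 nt (-2.96 percentage points) and with genome-contained reads left out (-4.32). With 4 libraries no exact permutation test could pass a threshold of 0.05, so these tests show direction and size only. edgeR has no such limit, and outside the family it called 1 target gene with alignments of at least 16 nt. With 1 to 86 reads a member, no difference between genotypes in a single member passed the test, which does not show that the genotypes were alike.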
